A study of Homo sapiens with 12 samples.

Results

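Messenger RNA of the anion exchanger band 3 and of the red cell membrane skeleton was followed in HUDEP-2 cells, an immortalized human line of erythroid progenitors, with and without MBD2, a protein that binds methylated CpG. The set is 9 genes of the 60483 in the deposited count table: SLC4A1, ANK1, SPTB, EPB41, EPB42, DMTN, TMOD1, ADD2 and TMCC2. They were chosen by name as band 3 and the genes of spectrin, ankyrin and actin junction proteins, and were joined by Ensembl identifier across 4 groups of 3 libraries each. MBD2 knockout (KO) cells of genotype MBD2-/- and control cells of genotype WT, given a scrambled guide RNA (sgSCR), were sequenced after differentiation, at the stage labelled late basophilic erythroblast. Both were also sequenced before it, as early basophilic erythroblasts. Cells after differentiation had been moved to IMDM holding Human AB serum, insulin, heparin, HTF, EPO, DOX and L-Glu, and cells before it were in SFEM holding DEX, SCF, EPO, DOX and L-Glu, so medium and stage changed together. EPO, DOX and L-Glu were shared by all 4 groups. The labels give the length of differentiation as 3 days in the RNA protocol and as 5 days in the culture protocol. They do not say whether the KO cells were 1 clone or whether the 3 libraries of a group were separate cultures, so the p-values measure the spread between these libraries, which may be technical.

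The red cell membrane is held by a lattice of spectrin tetramers that meet at short actin filaments. Ankyrin ties the spectrin beta chain to band 3, with protein 4.2 bound to both, and protein 4.1, adducin, dematin and tropomodulin build the actin junctions. In human erythropoiesis the spectrins and ankyrin are known to be made early and band 3 late, and inherited defects of SLC4A1, ANK1, SPTB and EPB42 cause hereditary spherocytosis while those of EPB41 cause elliptocytosis. In bulk RNA, fewer cells of a type and less RNA per cell cannot be told apart.

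Libraries held 7667997 to 14047498 counted read pairs. MBD2 itself averaged 2.73 ± 0.19 FPKM (fragments per kilobase of exon and 1e+06 read pairs, SD, n = 3) in KO cells after differentiation and 10.3 ± 0.286 in controls. Before differentiation it averaged 3.85 ± 0.406 FPKM in KO cells and 13.3 ± 0.299 in controls, with no overlap at either stage. Summed levels of 11 erythroid markers, all of them above the filter on low counts, were 15760 to 18675 CPM (counts scaled to 1e+06 per library) in KO libraries after differentiation, against 8433 to 9384 in controls. Before differentiation the sums were 7279 to 9523 CPM in KO libraries and 7062 to 8361 in controls. These markers include HBB and HBA1, while the libraries were depleted of globin RNA. Globin genes took 0.220% to 1.25% of counts in KO libraries after differentiation, against 0.0834% to 0.311% in controls. Before it they took 0.143% to 0.579% in KO libraries, against 0.125% to 0.615% in controls. Summed levels of 7 mast cell and basophil markers were 23.8 to 30.9 CPM in KO libraries after differentiation and 100.1 to 108 in controls, and before it 94.1 to 112 in KO libraries and 222 to 242 in controls. Summed levels of 7 neutrophil and monocyte markers were 4.30 to 7.73 CPM in KO libraries after differentiation, against 4.10 to 4.97 in controls, and before it 17.6 to 27.9 against 5.55 to 6.38. Sums of 7 megakaryocyte markers were 54.3 to 56.0 CPM in KO libraries after differentiation, against 21.8 to 23.6 in controls, and before it 43.2 to 64.3 against 27.2 to 30.6, with PPBP at 0 counts in all 12 libraries and PF4 at 0 in all KO libraries. Only 2 of these 7, LTBP1 and ITGA2B, passed the filter, as did 6 mast cell and 4 neutrophil markers. LTBP1 averaged 5.94 ± 0.150 FPKM in KO cells after differentiation and 1.42 ± 0.177 in controls (SD, n = 3 each). ITGA2B had a log2 difference between KO and control cells of -0.13 after differentiation, which was not called, and of 0.65 before it. Sums of 6 lymphoid and 6 stromal and endothelial markers stayed at or below 1.82 CPM in every library. Ribosomal RNA, that of mitochondria included, took 1.72% to 2.77% of counts in KO libraries after differentiation, against 0.570% to 1.05% in controls. Before it the shares overlapped, at 0.851% to 1.36% in KO libraries and 0.403% to 1.09% in controls. The part of these differences in the results below was not tested.

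Band 3 stood apart from the other members. SLC4A1 (ENSG00000004939.12, build hg38, chr17:44248385-44268141, minus strand) is the chloride and bicarbonate exchanger of the red cell and its main integral membrane protein. After differentiation SLC4A1 was at 167, 189 and 225 FPKM in the 3 KO libraries and at 10.3, 9.73 and 8.98 FPKM in the 3 controls. Before differentiation it was at 21.2, 24.9 and 18.2 FPKM in KO libraries and at 0.284, 0.500 and 0.522 FPKM in controls, where those levels rest on 16, 39 and 29 read pairs. Every KO library lay above every control library at both stages, and the control libraries before differentiation were the lowest of all 12.

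SLC4A1 rose in KO cells by 4.33 ± 0.14 on the log2 scale after differentiation (20.1-fold, adjusted p = 8.26e-13 in edgeR's quasi-likelihood test) and by 5.60 ± 0.18 before it (48.4-fold, adjusted p = 2.85e-12). Errors of log2 fold changes are standard errors from this fit. Of 17175 genes tested, SLC4A1 had the 18th highest log2 change after differentiation and the 15th before it. It also rose with differentiation in both cell types, by 3.18 ± 0.13 in KO cells (9.04-fold, adjusted p = 4.07e-12) and by 4.45 ± 0.19 in control cells (21.8-fold, adjusted p = 1.5e-11). The knockout effect after differentiation was smaller than that before it, by -1.27 ± 0.24 on the log2 scale (adjusted p = 0.00209). In FPKM the gap between the group means was wider after differentiation, since the level there was 194 ± 29.6 in KO cells and 9.65 ± 0.640 in controls, against 21.4 ± 3.32 and 0.435 ± 0.132 before it (SD, n = 3 each).

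**Figure D1:**
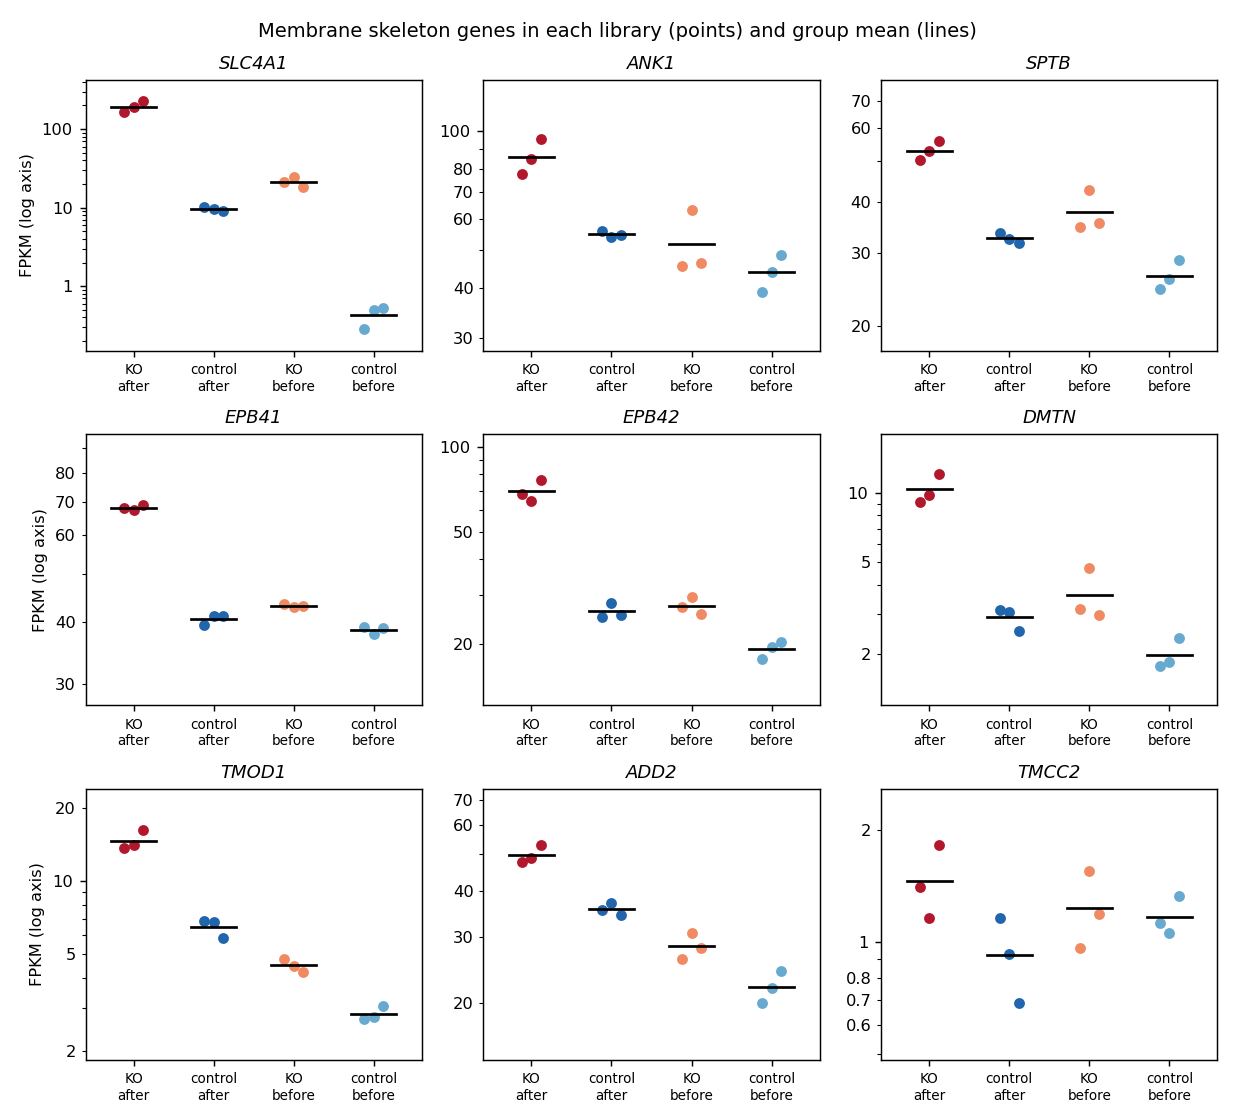
FPKM of the 9 genes in each library (points, log axes with a separate scale per gene) and the mean of 3 libraries (lines), for KO and control cells after and before differentiation. SLC4A1 runs from 0.284 FPKM in a control library before differentiation to 225 FPKM in a KO library after it, and TMCC2 stays between 0.684 and 1.83 FPKM.

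The 2 genes that anchor band 3 to spectrin changed far less. ANK1 (ENSG00000029534.18, chr8:41653220-41896762, minus strand) encodes ankyrin-1, the adaptor between band 3 and spectrin beta. After differentiation ANK1 was at 77.7, 84.8 and 95.5 FPKM in KO libraries, against 56.0, 53.9 and 54.7 in controls, and before it at 45.6, 63.3 and 46.4 in KO libraries, against 39.3, 44.0 and 48.7 in controls. The groups were apart after differentiation and overlapped before it. ANK1 rose in KO cells by 0.65 ± 0.11 after differentiation (edgeR adjusted p = 0.000259). Before it the log2 difference was 0.23 ± 0.11 (adjusted p = 0.181), and the KO library at 63.3 FPKM, replicate 2, was far from the other KO libraries. Without that library the stage difference of its knockout effect (after minus before), 0.41 ± 0.16 with all libraries (adjusted p = 0.101), was 0.59 (adjusted p = 0.00392).

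EPB42 (ENSG00000166947.10, chr15:43106225-43221283, minus strand) encodes protein 4.2, which binds band 3 and ankyrin. It was at 68.2, 64.6 and 76.4 FPKM in KO libraries after differentiation, against 24.96, 28.1 and 25.5 in controls. Before differentiation it was at 27.2, 29.5 and 25.7 FPKM in KO libraries, against 17.7, 19.5 and 20.4 in controls. The groups were apart at both stages, and KO libraries before differentiation overlapped controls after it. EPB42 rose in KO cells by 1.41 ± 0.08 after differentiation (2.66-fold, edgeR adjusted p = 7.5e-10) and by 0.52 ± 0.08 before it (1.43-fold, adjusted p = 0.000196). The effect after differentiation exceeded that before it by 0.90 ± 0.11 (adjusted p = 7.38e-05).

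SPTB (ENSG00000070182.16, chr14:64746283-64879883, minus strand) encodes the erythroid spectrin beta chain, which carries the ankyrin site. It was at 50.3, 53.0 and 55.9 FPKM in KO libraries after differentiation, against 33.5, 32.5 and 31.9 in controls, and before it at 34.7, 42.6 and 35.6, against 24.6, 26.0 and 28.9. All KO libraries were above all controls of the same stage. SPTB rose in KO cells by 0.70 ± 0.08 after differentiation (edgeR adjusted p = 4.69e-06) and by 0.51 ± 0.08 before it (adjusted p = 0.000327), and the effects differed by 0.19 ± 0.12 (adjusted p = 0.314).

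EPB41 (ENSG00000159023.17, chr1:28887091-29120046, plus strand) encodes protein 4.1, which strengthens the binding of spectrin to actin. It was at 68.0, 67.4 and 68.9 FPKM in KO libraries after differentiation, against 39.4, 41.3 and 41.2 in controls. Before it the levels were 43.6, 42.9 and 43.1 FPKM in KO libraries and 39.2, 37.8 and 39.0 in controls. KO libraries after differentiation stood above the other 9 libraries, which spanned 37.8 to 43.6 FPKM. EPB41 rose in KO cells by 0.74 ± 0.06 after differentiation (1.68-fold, edgeR adjusted p = 1.86e-08). Before it the log2 difference of 0.16 ± 0.06 did not pass (adjusted p = 0.0572), although the groups did not overlap, and the effects differed by 0.58 ± 0.08 (adjusted p = 0.000125).

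Of the junction genes, DMTN (ENSG00000158856.16, chr8:22048995-22082527, plus strand) encodes dematin, which bundles actin. DMTN was at 9.17, 9.86 and 12.1 FPKM in KO libraries after differentiation, against 3.12, 3.04 and 2.52 in controls, and before it at 3.13, 4.74 and 2.95, against 1.78, 1.85 and 2.34. The groups did not overlap at either stage. DMTN rose in KO cells by 1.83 ± 0.16 after differentiation (3.56-fold, edgeR adjusted p = 1.62e-07) and by 0.86 ± 0.18 before it (1.81-fold, adjusted p = 0.00253). The effect after differentiation exceeded that before it by 0.97 ± 0.24 (adjusted p = 0.0132).

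TMOD1 (ENSG00000136842.12, chr9:97501180-97601748, plus strand) encodes tropomodulin-1, the cap of the pointed end of actin filaments. It was at 13.7, 14.05 and 16.3 FPKM in KO libraries after differentiation, against 6.83, 6.80 and 5.82 in controls, and before it at 4.75, 4.48 and 4.22, against 2.71, 2.74 and 3.06. The 4 groups did not overlap one another. TMOD1 rose in KO cells by 1.17 ± 0.10 after differentiation (2.25-fold, edgeR adjusted p = 5.19e-08) and by 0.67 ± 0.11 before it (1.59-fold, adjusted p = 0.000322). The effects differed by 0.50 ± 0.15 (adjusted p = 0.0298), a call that was lost on leaving out control before replicate 2 or 3, KO before replicate 3, control after replicate 3 or KO after replicate 3, one at a time, with an adjusted p of 0.0506 to 0.0747.

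ADD2 (ENSG00000075340.21, chr2:70607618-70768225, minus strand) encodes adducin beta, which caps actin and recruits spectrin. It was at 47.8, 48.7 and 52.8 FPKM in KO libraries after differentiation, against 35.4, 37.2 and 34.4 in controls, and before it at 26.3, 30.9 and 28.1, against 20.001, 22.01 and 24.4. The 4 groups were apart from one another, with both groups after differentiation above both groups before it. ADD2 rose in KO cells by 0.48 ± 0.08 after differentiation (edgeR adjusted p = 0.00016) and by 0.36 ± 0.08 before it (adjusted p = 0.00435), and the effects differed by 0.12 ± 0.11 (adjusted p = 0.543).

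TMCC2 (ENSG00000133069.13, chr1:205228176-205273343, plus strand) encodes a coiled-coil membrane protein that is not a known part of the spectrin lattice. It was at 1.41, 1.16 and 1.83 FPKM in KO libraries after differentiation, against 1.16, 0.930 and 0.684 in controls, and before it at 0.968, 1.55 and 1.19, against 1.12, 1.06 and 1.33. KO and control libraries overlapped at both stages, on 32 to 85 read pairs per library. The log2 difference after differentiation was 0.63 ± 0.23 and passed narrowly (edgeR adjusted p = 0.0411), but did not pass without control replicate 2 or 3 or KO replicate 1 or 3, one at a time, with an adjusted p of 0.0783 to 0.187. Before differentiation it was 0.07 ± 0.21 (adjusted p = 0.865).

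Counted over the set, all 9 members were called higher in KO cells after differentiation, where 16.8% of the genes tested were called higher. With 1 library left out 8 to 9 members were called, since TMCC2 passed narrowly. The set was chosen with earlier results of these data known, so these shares are a description and not a test of the set. Their median log2 change was 0.74, against -0.01 over all genes tested. Before differentiation 6 of 9 were called higher, where 9.07% of the genes tested were, with a median of 0.51 against -0.00 over all genes tested. The others were ANK1, EPB41 and TMCC2, and no member was called lower at either stage, where 16.3% of the genes tested were after differentiation and 8.15% before it. The difference between the knockout effects was called in the positive direction for 4 members (EPB41, EPB42, DMTN and TMOD1), where 6.28% of genes tested were, and in the negative direction for SLC4A1 alone, where 6.68% were. With 1 library left out the positive members were 3 to 5.

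**Figure D2:**
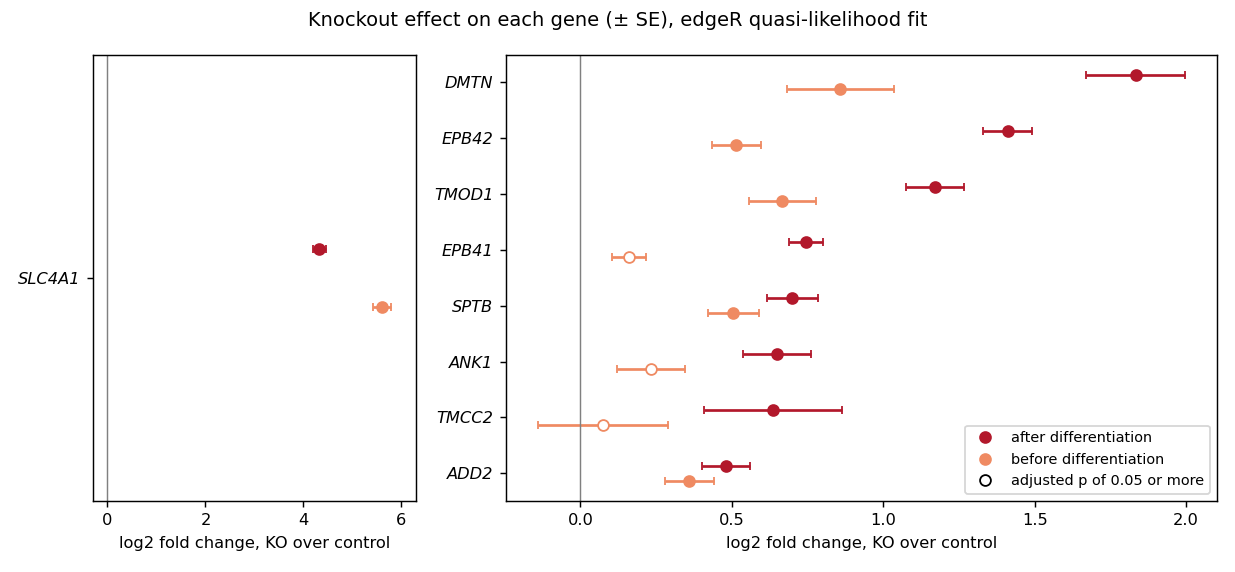
Log2 fold change of KO over control cells (points, bars ± SE) after and before differentiation, with SLC4A1 on its own axis at left. Open points have an adjusted p of 0.05 or more. The effect lies farther right after differentiation for the 8 other genes, while for SLC4A1 it is 4.33 after differentiation and 5.60 before it.

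With differentiation, 8 of 9 members rose in KO cells, where 28% of the genes tested were called higher, and 7 of 9 rose in control cells, where 21.5% were. The median log2 change of the members was 0.81 in KO cells and 0.45 in controls, against 0.03 and 0.01 over all genes tested. After SLC4A1, TMOD1 had the highest log2 change, 1.70 ± 0.10 in KO cells (edgeR adjusted p = 3.11e-10) and 1.20 ± 0.11 in controls (adjusted p = 1.21e-07). In KO cells DMTN and EPB42 came next, with 1.53 ± 0.16 (adjusted p = 3.83e-07) and 1.34 ± 0.08 (adjusted p = 4.62e-10), while in controls they had 0.55 ± 0.18 (adjusted p = 0.0217) and 0.45 ± 0.08 (adjusted p = 0.000245). EPB41 rose in KO cells by 0.66 ± 0.06 (adjusted p = 3.28e-08) and had 0.07 ± 0.06 in controls (adjusted p = 0.319). ADD2 rose by 0.81 ± 0.08 in KO cells and by 0.69 ± 0.08 in controls, ANK1 by 0.73 ± 0.11 and 0.32 ± 0.11, and SPTB by 0.50 ± 0.08 and 0.30 ± 0.08. In controls the call of ANK1 (adjusted p = 0.0304) was lost on leaving out any 1 control library but replicate 3 before differentiation, with an adjusted p of 0.0544 to 0.129, and with libraries scaled by their sizes only (0.27, adjusted p = 0.0953). That of DMTN was lost without control replicate 1 or 2 of either stage, one at a time, with 0.0683 to 0.0813. TMCC2 was not called, with 0.24 ± 0.22 in KO cells and -0.32 ± 0.22 in controls. These contrasts share their libraries with the KO contrasts, and the test of the difference between KO and control cells is the one given above for each gene.

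**Figure D3:**
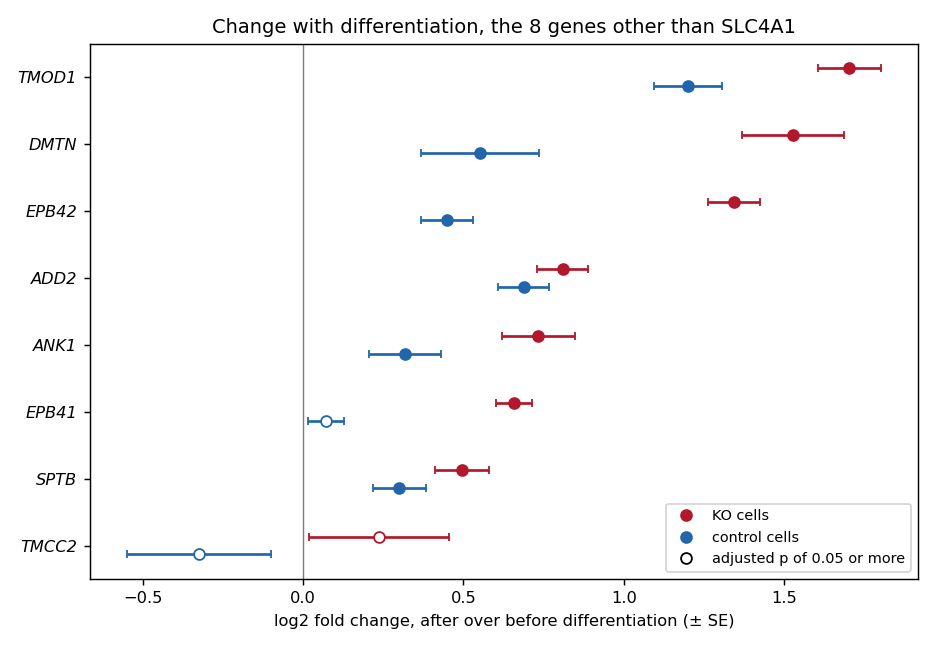
Log2 fold change of cells after over cells before differentiation (points, bars ± SE) for the 8 genes other than SLC4A1, in KO and control cells. Open points have an adjusted p of 0.05 or more. EPB41 sits at 0.66 in KO cells and 0.07 in controls, and ADD2 at 0.81 and 0.69.

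KO cells before differentiation were also set against control cells after it. SLC4A1 was higher in the undifferentiated KO cells by 1.15 ± 0.13 (2.22-fold, edgeR adjusted p = 1.21e-06), the one member called higher, where 24.8% of the genes tested were called higher. TMOD1 fell by 0.53 ± 0.10 on the log2 scale (adjusted p = 0.000346) and ADD2 fell by 0.33 ± 0.08 (adjusted p = 0.00276), where 22.8% were called lower. For the other 6 no difference was called: EPB42 had 0.07 ± 0.08 (adjusted p = 0.518), ANK1 -0.08 ± 0.11 (adjusted p = 0.568), EPB41 0.09 ± 0.06 (adjusted p = 0.205), DMTN 0.31 ± 0.17 and TMCC2 0.40 ± 0.22 (adjusted p = 0.152 each). SPTB lay at the threshold with 0.21 ± 0.08 (adjusted p = 0.0512), and passed without control before replicate 1 or 3 or KO before replicate 1 or 3, one at a time (adjusted p = 0.0253 to 0.047). Without KO before replicate 2, ANK1 fell by 0.25 on the log2 scale (adjusted p = 0.0315). This contrast differs in genotype, stage and medium at once.

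In the order of the members by FPKM, over merged exon lengths, band 3 moved the most. SLC4A1 was the highest of the 9 in KO cells after differentiation, the 6th in control cells after it and in KO cells before it, and the lowest in control cells before it. ANK1 was the highest in the other 3 groups, followed by EPB41, and TMCC2 was the lowest wherever SLC4A1 was not. EPB42 was 3rd in KO cells after differentiation and 5th in the other 3 groups, and ADD2 stood above SPTB in controls after differentiation alone. Most neighbours in the order did not overlap in their 3 libraries. The exceptions were EPB42 and EPB41, and SPTB and ADD2, in KO cells after differentiation, ADD2 and EPB42 before it in KO and in control cells, and TMOD1 and DMTN in KO cells before it. The summed level of the 9 members was 547 ± 52.5 FPKM in KO cells after differentiation, against 209.97 ± 3.96 in controls, and 219 ± 22.1 in KO cells before it, against 157 ± 11.1 in controls (SD, n = 3 each). SLC4A1 made up 35.3% ± 2.05 of this sum in KO cells after differentiation and 4.60% ± 0.252 in controls. Before differentiation it made up 9.75% ± 0.771 in KO cells and 0.275% ± 0.0705 in controls (SD, n = 3 each). Without SLC4A1 the sums were 353 ± 23.3 FPKM in KO cells and 200.3 ± 3.54 in controls after differentiation, and 198 ± 19.2 and 157 ± 11.0 before it.

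**Figure D4:**
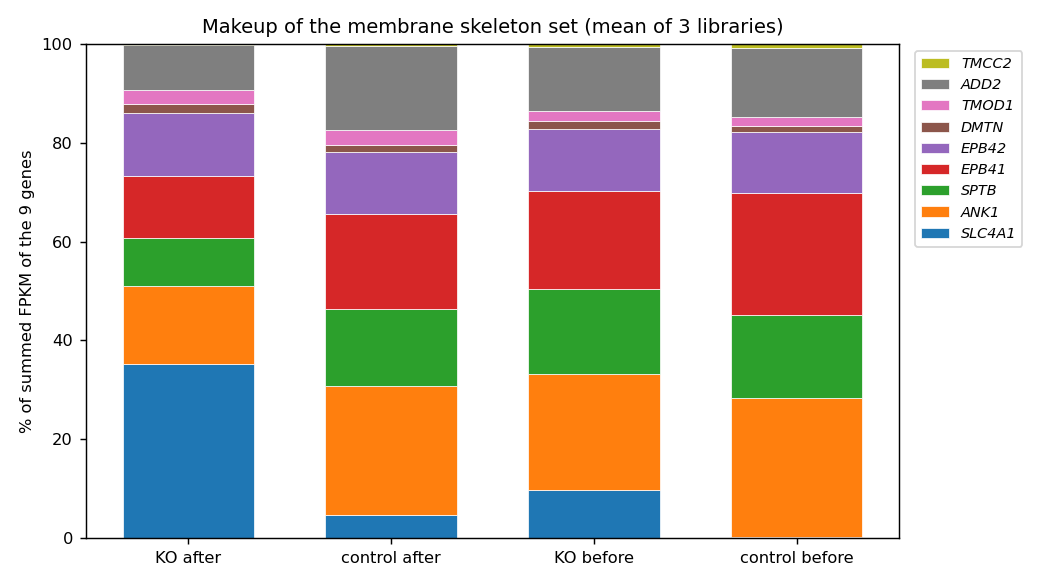
Share of each gene in the summed FPKM of the 9 genes (stacked bars, mean of 3 libraries), for KO and control cells after and before differentiation. SLC4A1, at the foot of each bar, takes 35.3% in KO cells after differentiation and 0.275% in control cells before it.

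Levels per length rest on merged exon lengths, and counting was without strand, so exon bases shared with another gene bear on them. Such bases made up 45.01% of TMOD1 (shared with TSTD2), 34.8% of EPB42 (SPCS2P1 and CCNDBP1), 23.1% of SPTB (mostly PLEKHG3), 7.80% of ANK1 and 7.47% of EPB41. SLC4A1, DMTN, ADD2 and TMCC2 shared none. An alternative chosen after seeing the data divided all counted read pairs by the unshared length only. It holds as far as read pairs in shared bases went uncounted, which was not checked. EPB42 would then stand at 107 FPKM in KO cells after differentiation and at 40.2 in controls. TMOD1 would stand at 26.7 in KO cells and 11.8 in controls. The order of the members would then differ. After differentiation EPB42 would pass ANK1 (93.3) in KO cells, and in controls TMOD1 would pass SLC4A1, leaving it 7th. Before differentiation SPTB (48.9) would pass EPB41 (46.7) in KO cells. EPB42 would pass ADD2 in the 3 groups where it stood lower, and SPTB would pass ADD2 in controls after differentiation. SLC4A1 would still be the highest in KO cells after differentiation and the lowest in controls before it. Reads from TMOD1 and its antisense neighbour cannot be told apart where they overlap, while ratios of one gene between groups use the same length.

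Band 3 messenger RNA was set against its anchor within each library. The ratio of SLC4A1 to ANK1, in FPKM, was 2.14, 2.23 and 2.36 in KO libraries after differentiation and 0.183, 0.181 and 0.164 in controls. Before differentiation the ratio was 0.466, 0.393 and 0.392 in KO libraries and 0.00723, 0.0114 and 0.0107 in controls. The 4 groups were apart. With 3 libraries on each side the exact permutation p (two-sided) is never under 0.1, so the ratios are given without a test.

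Of the members, 7 were also paired with a broadly expressed paralog, and EPB42 and DMTN were not. SLC4A2, the anion exchanger of most other cells, averaged 4.44 ± 0.410 FPKM in KO cells after differentiation and 3.79 ± 0.209 in controls, so that the ratio of SLC4A1 to SLC4A2 averaged 43.6 ± 4.97 and 2.55 ± 0.208 (SD, n = 3 each). Before differentiation the ratio was 4.99 ± 0.624 in KO cells and 0.134 ± 0.0209 in controls, the one group in which SLC4A2 was the higher of the pair. The log2 difference of SLC4A2 was 0.23 ± 0.15 after differentiation (edgeR adjusted p = 0.27). It was 0.45 ± 0.15 before it (adjusted p = 0.0466), a call lost without 8 of the 12 libraries, one at a time, that is all but control before replicate 3, KO before replicates 1 and 3 and KO after replicate 3, with an adjusted p of up to 0.27.

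SPTBN1, the spectrin beta chain of most other cells, fell in KO cells where SPTB rose. It fell by 0.65 ± 0.13 on the log2 scale after differentiation (edgeR adjusted p = 0.000861) and by 0.43 ± 0.11 before it (adjusted p = 0.0102). The ratio of SPTB to SPTBN1 was 67.8, 65.1 and 87.6 in KO libraries after differentiation, against 28.8, 29.8 and 26.4 in controls, and before it 22.2, 23.4 and 21.0, against 12.1, 12.2 and 10.7. No group overlapped another in this ratio. TMOD3, the tropomodulin of most other cells, had a log2 difference of 0.10 ± 0.06 after differentiation (adjusted p = 0.242) and of -0.08 ± 0.06 before it (adjusted p = 0.436). The first was -0.06 with libraries scaled by their sizes only. Per merged exon length TMOD1 exceeded TMOD3 in KO libraries after differentiation alone, where the ratio was 1.76, 1.74 and 2.29. It was 0.952, 0.969 and 0.801 in controls after differentiation, and before it 0.730, 0.690 and 0.620 in KO libraries, against 0.389, 0.390 and 0.440 in controls. That order depends on the length used. Over unshared bases the ratio would average 3.29 in KO cells and 1.55 in controls after differentiation, and 1.16 in KO cells and 0.693 in controls before it, so that TMOD1 would be the lower of the pair in controls before differentiation alone.

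ADD3, the adducin gamma chain, rose in KO cells by 0.32 ± 0.09 after differentiation (edgeR adjusted p = 0.00993, but 0.0564 without KO after replicate 2, and 0.16 with an adjusted p of 0.146 where libraries were scaled by their sizes only) and fell by 0.54 ± 0.09 on the log2 scale before it (adjusted p = 0.000372), while ADD2 was higher at both stages. The effects on ADD3 differed by 0.86 ± 0.13 (adjusted p = 0.000274). ANK3, ankyrin-G, rose in KO cells after differentiation by 1.20 ± 0.22 (edgeR adjusted p = 0.00034), more than ANK1 did. Its level was far lower, 0.209 ± 0.0261 FPKM in KO cells and 0.0915 ± 0.00693 in controls (SD, n = 3 each). Before differentiation ANK3 rose by 0.52 to 0.78 with 1 library left out (edgeR adjusted p = 0.00093 to 0.0423). In the same fits ANK1 had 0.06 to 0.31 and was never called (adjusted p = 0.0851 to 0.746). The ratio of ANK1 to ANK3 was lower in KO libraries after differentiation, at 425, 360 and 458, against 567, 633 and 605 in controls. Before differentiation this ratio overlapped, at 75.6, 152 and 83.2 in KO libraries, against 134, 117 and 143 in controls. TMCC1 fell by 0.58 ± 0.13 on the log2 scale after differentiation (adjusted p = 0.00264) and had -0.17 ± 0.11 before it (adjusted p = 0.368). The ratio of TMCC2 to TMCC1 averaged 1.59 ± 0.469 in KO cells after differentiation and 0.671 ± 0.215 in controls (SD, n = 3 each), and the lowest KO library, at 1.24, stood above the highest control, at 0.873. Before it the ratio was 0.530, 0.912 and 0.743 in KO libraries, against 0.582, 0.510 and 0.767 in controls, where the groups overlapped. EPB41L2, the protein 4.1 paralog paired with EPB41, held 3 to 23 read pairs per group and was not tested.

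**Figure D5:**
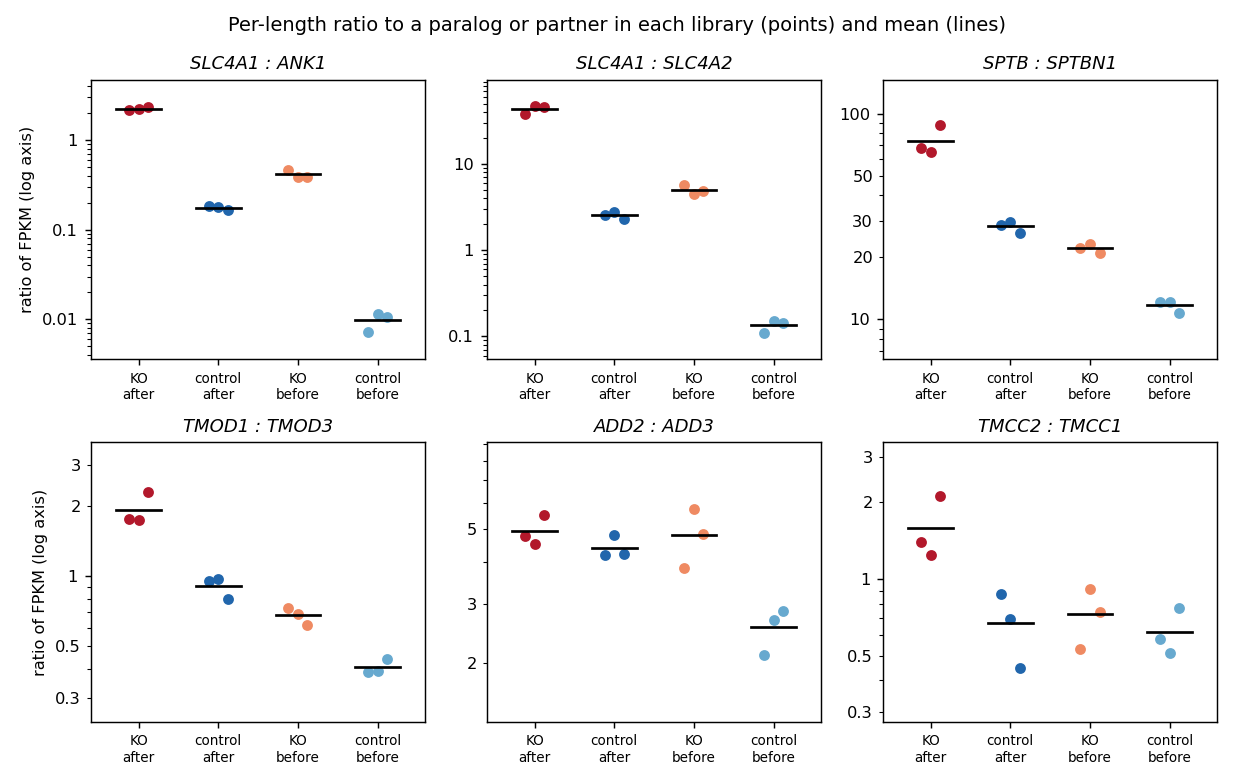
Ratio of FPKM between a member and a paralog or partner in each library (points, log axes) and the mean of 3 libraries (lines), for KO and control cells after and before differentiation. SLC4A1 to ANK1 and TMCC2 to TMCC1 pass 1 in KO cells after differentiation alone, and so does TMOD1 to TMOD3 over the merged exon lengths plotted, though over unshared bases its mean also passes 1 in controls after differentiation and in KO cells before it.

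The wider complexes were read from lists of partners, which hold no member of the set. Of 10 tested of 11 partners in the band 3 and ankyrin complex, 8 rose and 1 fell in KO cells after differentiation, with a median log2 change of 1.14, where 16.8% of the genes tested were called higher and 16.3% lower. Before it 5 rose and 1 fell, with a median of 0.40, where 9.07% were called higher and 8.15% lower. RHCE, which carries Rh antigens, rose by 2.73 ± 0.17 after differentiation (edgeR adjusted p = 1.63e-09). RHAG, the Rh-associated ammonium channel, rose by 1.46 ± 0.08 (adjusted p = 5.98e-10). RHCE has the close copy RHD, so counts of this pair may be split uncertainly. CD47, the integrin-associated protein bound to the Rh complex, fell by 0.54 ± 0.08 on the log2 scale before differentiation (adjusted p = 0.00012). The difference between the knockout effects was called positive for 6 of the 10, where 6.28% of the genes tested were, and RHAG among them had 1.32 ± 0.11 (adjusted p = 1.69e-06).

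Of 19 spectrin-actin junction partners, all tested, 9 rose and 4 fell in KO cells after differentiation, with a median log2 change of 0.14, where 16.8% of the genes tested were called higher and 16.3% lower. At this stage alone, the share of partners that fell was near that of all genes. Before differentiation 7 rose and 3 fell, with a median of 0.10, where 9.07% were called higher and 8.15% lower. SLC2A1, the glucose transporter of the human red cell junction, rose by 2.70 ± 0.08 after differentiation (edgeR adjusted p = 4.41e-13) and by 1.47 ± 0.08 before it (adjusted p = 1.34e-09). STOM, stomatin, rose by 1.14 ± 0.06 (adjusted p = 3.47e-10) and GYPC, the glycophorin anchored by protein 4.1, by 1.14 ± 0.08 (adjusted p = 1.42e-08) after differentiation. Among those that fell before differentiation was MYL12A, a myosin light chain, by 0.58 ± 0.06 on the log2 scale (adjusted p = 4.38e-06). ACTG1, gamma actin, fell with differentiation by 1.61 ± 0.10 on the log2 scale in KO cells (adjusted p = 5.01e-10) and by 1.46 ± 0.10 in controls (adjusted p = 3.14e-09).

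Of 27 broadly expressed relatives, 17 passed the filter on low counts. In KO cells 6 rose and 5 fell after differentiation, with a median log2 change of 0.23, where 16.8% of the genes tested were called higher and 16.3% lower. Before it 6 rose and 4 fell, with a median of 0.31, where 9.07% were called higher and 8.15% lower. SLC4A7, a sodium bicarbonate transporter of the same family as band 3, fell by 1.80 ± 0.11 on the log2 scale after differentiation (edgeR adjusted p = 2.89e-09) and by 1.19 ± 0.10 before it (adjusted p = 1.16e-07).

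Genes with the profile most like that of SLC4A1 were sought among 11634 others by the root mean square difference of centred log2 CPM over the 4 group means. The nearest was TRIM10, a member of the tripartite motif family, at a difference of 0.61. It averaged 70.8 ± 4.36 FPKM in KO cells after differentiation and 2.61 ± 0.167 in controls, and before it 14.6 ± 1.91 in KO cells and 0.291 ± 0.0291 in controls (SD, n = 3 each). AQP1, the red cell water channel, came next at 1.24, then the linker histone gene H1F0 at 1.32, LTBP1 at 1.36 and HBBP1 at 1.38. The other members lay farther from SLC4A1, DMTN nearest at 2.34 and TMCC2 farthest at 3.03. Among themselves ANK1 and EPB41 were the closest pair at 0.09, ANK1 and SPTB stood at 0.12, SPTB and EPB41 at 0.12, ANK1 and ADD2 at 0.13, and EPB42 and DMTN at 0.20. These are distances between 4 means, and flat profiles lie close to many genes. The gene nearest to each other member was ANLN for ANK1, ZDHHC3 for SPTB, USP6 for EPB41, DDI2 for EPB42, MYL4 for DMTN, ROGDI for TMOD1, ZFAND2B for ADD2 and CLIC2 for TMCC2, at differences of 0.00466 to 0.0599.

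Promoter sequences were described for part of the set, and no measure of their likeness was computed. MBD2 binds methylated CpG, and erythroid promoters often hold GATA and CACCC elements, so the 250 bases upstream of annotated starts were searched. RefSeq windows on build GRCh38 were at hand for 6 of the 9 members, 15 windows in all, and for SLC4A1, ANK1 and DMTN there was none. The letters GATAA and CACCC were sought on both strands, with overlaps between motifs allowed. Over the 35116 windows at hand, which do not cover every gene, 20.4% held GATAA, 3.87% held it at least 2 times, 54.7% held CACCC, 8.75% held both, and the median number of CpG was 11 (quartiles 3 and 23). The windows shown are 3, with motif matches in capitals: one of 2 windows of SPTB, which rose at both stages, holding both motifs, one of 2 of TMOD1, which rose at both stages, holding neither, and one of 6 of TMCC2, which was not called before differentiation, holding neither.
SPTB, chr14:64879908-64880157, minus strand: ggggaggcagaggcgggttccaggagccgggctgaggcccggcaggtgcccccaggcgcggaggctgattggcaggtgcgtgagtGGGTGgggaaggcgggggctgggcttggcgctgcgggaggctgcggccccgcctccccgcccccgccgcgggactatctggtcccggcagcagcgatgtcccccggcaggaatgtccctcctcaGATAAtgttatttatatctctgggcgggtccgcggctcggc
TMOD1, chr9:97500930-97501179, plus strand: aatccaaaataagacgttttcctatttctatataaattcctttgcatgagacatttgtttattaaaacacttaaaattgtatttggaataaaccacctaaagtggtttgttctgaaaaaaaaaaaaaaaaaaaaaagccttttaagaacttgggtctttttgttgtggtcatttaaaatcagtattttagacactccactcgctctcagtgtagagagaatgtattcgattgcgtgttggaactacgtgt
TMCC2, chr1:205227696-205227945, plus strand: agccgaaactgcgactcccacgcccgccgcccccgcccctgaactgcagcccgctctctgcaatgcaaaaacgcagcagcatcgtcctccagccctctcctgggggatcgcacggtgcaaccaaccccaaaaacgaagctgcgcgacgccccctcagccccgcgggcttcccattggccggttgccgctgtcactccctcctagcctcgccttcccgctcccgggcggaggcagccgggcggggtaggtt

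The SPTB window shown holds 1 GATAA, 1 CACCC (as GGGTG on the printed strand) and 22 CpG, the TMOD1 window 5 CpG and the TMCC2 window 25. The single EPB42 window, which lies within an annotated EPB42 exon at chr15:43221019-43221268 (minus strand) and is not shown, holds 2 GATAA, 1 CACCC and 1 CpG. The other windows of these genes hold 3 to 35 CpG. The second TMOD1 window holds 1 CACCC and no GATAA, with 35 CpG. Of the other 5 TMCC2 windows, 1 holds 1 GATAA and 3 CACCC, 1 holds 1 GATAA alone, and 3 hold CACCC alone, 2, 2 and 3 times. The second SPTB window holds 2 CACCC and the windows of ADD2 hold 1 and 2, all without GATAA, and neither EPB41 window holds either motif. A motif match is a description of the letters, and methylation was not measured here.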

How the data were processed

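RNA was sequenced from 12 libraries of HUDEP-2 cells, 3 in each of 4 groups. Per the labels, total RNA was extracted with the mirVana kit and the library kit kept strand and depleted globin and ribosomal RNA. Raw read-pair counts per gene were deposited, which the authors made with featureCounts 1.4.6-p4 over exons by gene identifier in the GENCODE release 22 annotation of hg38, with no strand option, per the file headers. The submitters' processing notes give featureCounts 1.2.6 beside edgeR 3.18.1, Subread 1.6.2, FastQC and Trimmomatic. Symbols were joined by identifier from GENCODE release 29 for 56753 of 60483 genes.

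The members and the gene lists were chosen with earlier results of these data known. The fit used edgeR 4.0.16 in R 4.3.3: filterByExpr kept 17175 genes, all 9 members among them, TMM factors scaled the libraries, and 1 group-means model over 12 libraries (glmQLFit, glmQLFTest, two-sided) gave each comparison. A gene was called where its p, adjusted by Benjamini-Hochberg across all 17175, was under 0.05, and the standard error is the log2 fold change over the square root of F. FPKM is the TMM-scaled CPM per kilobase of merged exons, computed here from the counts. The fit was tested on simulated counts with the same spread for every gene and few changed genes. That test does not bear on the choice of scaling for the libraries. In none of the 12 pairs of libraries within a group did counts agree within sampling noise (chi-square per degree of freedom of at least 5.85). Depth was 7667997 to 14047498 counts per library, and counting error covers sampling of reads only.

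Named in the text were the members, MBD2, the paired paralogs, up to 4 called genes per list and comparison by smallest adjusted p, and the nearest genes by profile. The alternatives were library sizes only, RLE factors, no filter, a block for replicate number, only the 2 groups compared, DESeq2 1.42.0, and each library left out. The replicate numbers were not taken as pairs. Protein sequences were not used here. Some results of the partner lists are not reported here.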

Additional observations from a re-analysis of the deposited data

Results flagged for a closer look

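The knockout effect differed between the stages, by the interaction test of the edgeR fit, for 5 members. On the log2 scale, after minus before differentiation, the difference was -1.27 for SLC4A1, 0.58 for EPB41, 0.90 for EPB42, 0.97 for DMTN and 0.50 for TMOD1. The call of TMOD1 was the least firm. It was lost with library sizes only (edgeR adjusted p = 0.119), with no filter (0.0784) and on leaving out some of the libraries, one at a time (0.0506 to 0.0747). SLC4A1 rests on 16 to 39 read pairs per control library before differentiation, and its level there enters only this contrast and the other 2 that use that group. The summed erythroid markers, HBB and HBA1 among them, were higher in KO cells after differentiation, and the part of this in the differences was not tested.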

How the results depend on the processing

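Of the members' log2 fold changes and calls under the alternatives, 922 kept their direction and side of the threshold, 16 passed it newly, 22 no longer passed and 3 changed sign. The changes of sign were those of TMCC2 before differentiation, which ran from -0.12 to 0.23 over the libraries left out and was -0.0044 without control before replicate 2, and of the stage difference of ADD2, -0.011 with library sizes only. That scaling moved the median log2 change of all genes to -0.17 for KO against control after differentiation, to -0.16 for after against before in KO cells and to -0.15 for the stage difference. With it, 1843 genes were called higher and 4826 lower in KO cells after differentiation, against 2882 and 2805 with TMM, and the stage difference was called positive for 644 and negative for 2146, against 1079 and 1148. The call of TMCC2 after differentiation was then lost (adjusted p = 0.125), as was the stage difference of TMOD1 (adjusted p = 0.119), which also failed with no filter (adjusted p = 0.0784). Also lost with library sizes only were ADD3 after differentiation (adjusted p = 0.146), SLC4A2 before it (adjusted p = 0.0831) and ANK1 with differentiation in controls (adjusted p = 0.0953), and TMOD3 in KO cells after differentiation turned to -0.059. Over unshared exon bases, chosen after seeing the data, the log2 ratio of TMOD1 to TMOD3 turned to 0.62 in controls after differentiation and to 0.21 in KO cells before it. EPB41 before differentiation passed in DESeq2 (adjusted p = 0.0149), and with no filter ANK1 passed before differentiation (adjusted p = 0.036) and in its stage difference (adjusted p = 0.0104). Genes called higher in KO cells before differentiation ran from 1024 (without control before replicate 1) to 1589 with 1 library left out. Members called higher in KO cells before against controls after differentiation were 2 in place of 1 with library sizes only, RLE factors, the replicate block and DESeq2, 3 with no filter, and 1 to 2 with 1 library left out. The cause of these shifts was not tested. With the replicate block the stage difference of ANK1 passed (0.41, adjusted p = 0.0446), as did SPTB in KO cells before against controls after differentiation (0.20, adjusted p = 0.033), and no other member's call changed. The block raised genes called higher in KO cells before differentiation to 1869 from 1558. Same-numbered libraries of different groups had deviations correlated at -0.02 to 0.25 over the 18 pairs. In none of the pairs of groups compared did all 3 exceed 0.1, but they did between controls before and KO cells after differentiation (0.106, 0.108 and 0.251), groups that were not compared directly. A library correlated best with its own number in the other group in 23 of 36 cases, a hint from the data and not the design. Depth limits TMCC2, with 32 to 85 read pairs per library, and SLC4A1 in control cells before differentiation.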
